A study of Mus musculus with 68 samples.

Results

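The genes described here are 10 members of the FOXO branch of insulin and IGF1 signalling, of 30142 genes measured in the mouse uterus: the transcription factors Foxo1, Foxo3 and Foxo4, and the genes Fbxo32, Klhl24, Sesn1, Sesn3, Txnip, Bcl6 and Pik3ip1, which are known as FOXO targets or as genes that rise with FOXO activity in fasted tissue. A member was read from the probe set annotated to its symbol alone. Sesn3 has 2 such probe sets, and the one with the higher mean over all 68 arrays was used. All levels are deposited log2 microarray intensities, so a difference of 1 is a doubling, and no gene's level is set against that of another gene.

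The study asked how far the uterine response to IGF1 needs oestrogen receptor alpha (ERα, encoded by Esr1). All mice were ovariectomized females of C57Bl6 background, so every group, controls included, lacked ovarian hormones. Their age is not given in the labels. There were 5 lines: plain C57 wild types with 14 arrays, Ex3aERKO mice with a deletion of Esr1 throughout the body (11 arrays) and their wild-type littermates (14 arrays), and ERaUtcKO mice (15 arrays) and their wild-type littermates (14 arrays). ERaUtcKO mice carry a floxed Esr1 and Cre recombinase driven by the progesterone receptor gene (Esr1f/f;PgrCre+), so the deletion is limited to cells in which that promoter is or was active. Within each line, mice received saline vehicle, 250 ng oestradiol (E2) or IGF1, and the hormone groups were collected after 2 h or 24 h, which gives 25 groups, 18 of 3 arrays and 7 of 2. Per the series' design text, the groups of 2 lost an array that stood apart in a principal component analysis, so their spread may be understated. Vehicle uteri were collected at 24 h only, so the 2 h groups have no vehicle of their own time. IGF1 was given as an injection of 50 µg or by an osmotic pump, and the labels of the samples do not say which mouse received which. Nor do they say that each array is a separate mouse, so the p-values measure only the spread between these samples. The wild-type comparisons pool the 3 sets of wild types with set as a term, which gives 8 vehicle, 9 E2 2 h, 7 IGF1 2 h, 9 E2 24 h and 9 IGF1 24 h arrays. E2 and IGF1 were compared with the same vehicle arrays.

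FOXO transcription factors are held in check by growth factors. IGF1 acts through its receptor, IRS adaptors, PI3-kinase and AKT, and AKT phosphorylates FOXO proteins, which then leave the nucleus. When the pathway is quiet, FOXO proteins return to the nucleus and switch on genes of protein breakdown, cell-cycle arrest and nutrient sparing. In the uterus E2, acting through ERα, raises local IGF1 and starts growth of an ovariectomized organ.

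The promoter of Txnip is shown because it was the 1 member whose 250 bases before the start site held the FOXO core letters GTAAACA, and those of Sesn3 and Bcl6 because they held GGTCA, the letters of 1 arm of the oestrogen response element. Capitals mark these letters, and both strands were searched. The sequences are from RefSeq for mouse build GRCm38.p6, read 5′ to 3′ in the direction of transcription.
Txnip, chr3:96557707-96557956, plus strand: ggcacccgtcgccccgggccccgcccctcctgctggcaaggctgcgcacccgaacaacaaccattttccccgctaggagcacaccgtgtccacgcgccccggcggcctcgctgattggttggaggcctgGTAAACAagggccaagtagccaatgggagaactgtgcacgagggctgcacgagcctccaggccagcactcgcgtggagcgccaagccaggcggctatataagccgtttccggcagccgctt
Sesn3, chr9:14276051-14276300, plus strand: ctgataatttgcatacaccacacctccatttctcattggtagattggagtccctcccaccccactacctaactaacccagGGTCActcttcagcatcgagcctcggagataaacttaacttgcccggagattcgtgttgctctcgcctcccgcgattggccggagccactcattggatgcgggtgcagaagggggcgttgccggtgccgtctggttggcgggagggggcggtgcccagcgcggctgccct
Bcl6, chr16:23981284-23981533, minus strand: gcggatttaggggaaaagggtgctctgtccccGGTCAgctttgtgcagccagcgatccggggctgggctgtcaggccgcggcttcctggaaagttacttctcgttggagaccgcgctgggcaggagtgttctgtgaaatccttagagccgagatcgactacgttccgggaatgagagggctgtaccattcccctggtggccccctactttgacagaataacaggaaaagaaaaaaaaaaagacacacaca
In Txnip the letters GTAAACA lie 121 to 115 bases before the start. Of 32851 mouse promoters of this length, 3.17% held them. GGTCA lies 170 to 166 bases before the start of Sesn3 and 218 to 214 bases before this start of Bcl6, and 35.2% of promoters held it. The full palindromic element, both arms with 3 bases between them, was in no member's window and in 0.0639% of all promoters. A match of letters describes the window and does not show binding. Promoters were found for 7 of the 10 members, and Fbxo32, Klhl24 and Foxo4 had no entry.

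The labels were checked with 2 genes. The Esr1 probe set lay between 9.38 and 10.29 in Ex3aERKO and between 11.44 and 12.73 in their littermates, and between 10.28 and 11.10 in ERaUtcKO against 11.66 to 12.39 in theirs, so the knockout arrays lay below all littermate arrays of their experiment. Greb1, a direct ERα target, rose by 4.88 ± 0.11 (SE) on the log2 scale in wild types 2 h after E2 and by 1.66 ± 0.12 in ERaUtcKO, while its difference in Ex3aERKO was -0.08 ± 0.17 (limma adjusted p = 1.63e-31, 3.23e-08 and 0.984). Array medians over all genes differed between the sets (6.93 to 7.10 in C57, 6.17 to 6.33 in the Ex3aERKO experiment, 6.59 to 6.80 in the ERaUtcKO experiment). Differences were therefore fitted within an experiment or with set as a term. The ranges and medians pooled over the wild-type sets below still include these offsets. All 10 members lay above the control probe sets' median on all 68 arrays. That median was only 3.28 to 4.45. Foxo4, the dimmest member (mean 6.605), did not pass the filter on dim genes in the wild-type fit, which kept 9 members. The number of arrays, 2 or 3 a group, limits the precision of every value. In whole uterus, fewer cells of a type and less RNA per cell cannot be told apart.

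The atrogene Fbxo32, which encodes a muscle ubiquitin ligase subunit (atrogin-1), fell furthest of the members with IGF1 in the pooled wild types, though in C57 alone Klhl24 fell further (-4.45 against -4.26). On the 8 wild-type vehicle arrays it ran from 14.26 to 15.34 with a median of 14.95. At 2 h after IGF1 the 7 arrays ran from 8.29 to 11.05 with a median of 9.999, and after E2 the 9 arrays ran from 11.75 to 12.84 with a median of 12.68. The 3 ranges did not overlap, and the IGF1 arrays were the lowest. Fbxo32 fell by 5.02 ± 0.24 (32.5-fold) with IGF1 and by 2.45 ± 0.23 (5.47-fold) with E2, with limma adjusted p = 5.2e-19 and 6.05e-12 over all genes. Klhl24, a Kelch-like adaptor of ubiquitin ligases, followed it: 13.30 to 14.18 with vehicle (median 13.60), 9.12 to 10.05 with IGF1 (median 9.66) and 11.35 to 12.99 with E2 (median 12.21). These ranges too were apart, and the differences from vehicle were -4.04 ± 0.17 (16.5-fold) with IGF1 and -1.39 ± 0.16 (2.62-fold) with E2, adjusted p = 1.42e-20 and 1.04e-09.

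The sestrins, which restrain mTORC1 when nutrients or growth factors are short, fell to overlapping levels with both hormones. Sesn1 ran from 11.80 to 12.34 with vehicle (median 11.997), from 8.48 to 9.44 with E2 (median 9.04) and from 8.35 to 9.73 with IGF1 (median 9.13). Both hormone groups lay below every vehicle array, and they overlapped each other. The fall was 3.05 ± 0.13 (8.28-fold) with E2 and 2.93 ± 0.14 (7.63-fold) with IGF1, adjusted p = 5.08e-22 and 2.23e-19. Sesn3 fell from 12.78 to 13.89 with vehicle (median 13.54) to 10.26 to 11.95 with E2 (median 11.12) and 9.57 to 12.20 with IGF1 (median 11.01). No treated array reached the lowest vehicle array, and the falls were 2.33 ± 0.18 (5.01-fold) and 2.24 ± 0.19 (4.72-fold), adjusted p = 3.02e-14 and 1.25e-12. Pik3ip1, an inhibitor of PI3-kinase, fell by 1.74 ± 0.10 (3.35-fold) with E2, from 7.84 to 8.95 (median 8.37) to 6.15 to 6.90 (median 6.74), and by 1.78 ± 0.11 (3.44-fold) with IGF1, to 6.32 to 6.97 (median 6.56), adjusted p = 2.63e-17 and 4.04e-16.

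Txnip, an arrestin-like protein that limits glucose uptake and binds thioredoxin, was the member in which E2 had the deeper effect. Its vehicle arrays ran from 15.96 to 17.37 (median 16.60), the E2 2 h arrays from 12.49 to 15.08 (median 13.99) and the IGF1 2 h arrays from 13.96 to 16.32 (median 15.14). The E2 arrays lay below all vehicle arrays, whereas the IGF1 range reached into the vehicle range across sets and lay below it within each set. Txnip fell by 2.63 ± 0.25 (6.18-fold) with E2 and by 1.44 ± 0.27 (2.71-fold) with IGF1, adjusted p = 1.43e-11 and 2.85e-05.

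**Figure D1:**
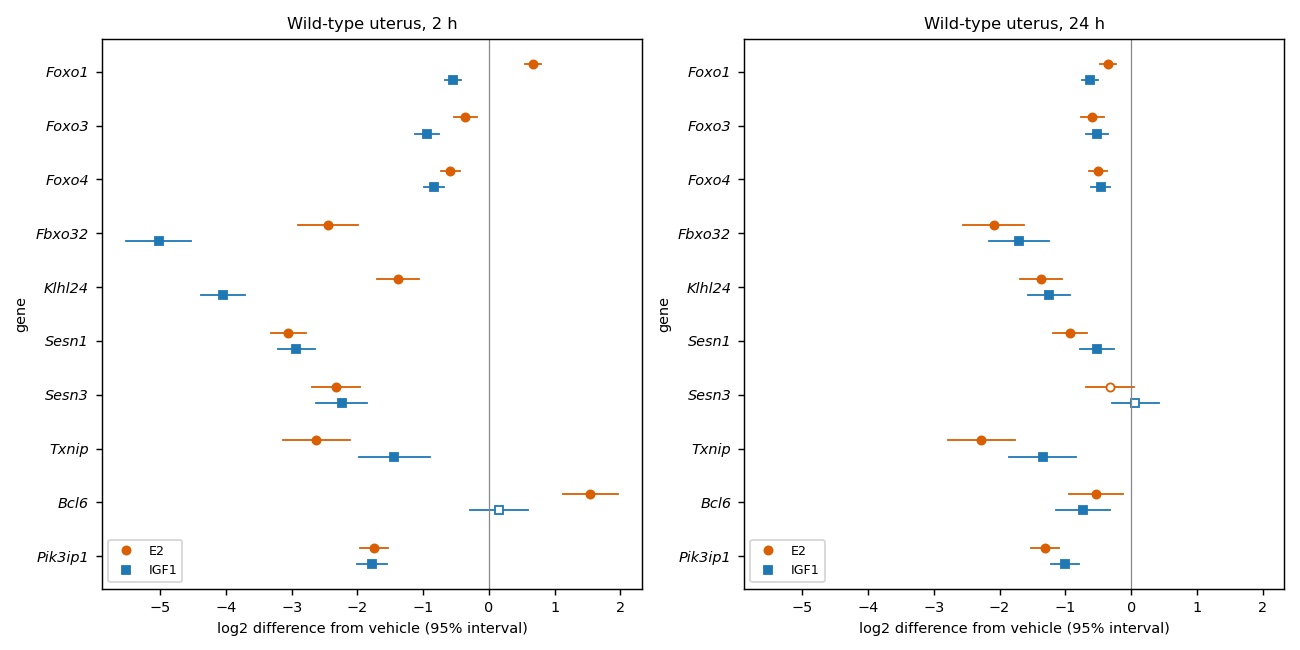
Log2 differences from vehicle for the 10 genes in wild-type uterus, 2 h and 24 h after E2 or IGF1, with 95% intervals of the limma fit over 42 arrays; filled symbols passed an adjusted p of 0.05 and open ones did not. Fbxo32 and Klhl24 lie furthest to the left 2 h after IGF1 (-5.02 and -4.04), and Foxo1 and Bcl6 lie to the right of 0 after E2 at 2 h (0.67 and 1.54).

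Bcl6, a transcriptional repressor, and Foxo1 went the other way with E2. Bcl6 rose by 1.54 ± 0.20 (2.92-fold, adjusted p = 3.35e-08) 2 h after E2, from 7.58 to 10.45 (median 9.08) to 10.11 to 11.72 (median 10.70). Its vehicle arrays differed between sets, from 10.15 to 10.45 in C57 against 7.58 to 9.16 in the littermates, and within each set the E2 arrays lay above the vehicle arrays. With IGF1 at 2 h it was not called over the 3 sets (0.15 ± 0.22, 95% interval -0.29 to 0.60, adjusted p = 0.646). Foxo1 rose by 0.67 ± 0.06 with E2 and fell by 0.55 ± 0.06 with IGF1 (adjusted p = 1.55e-12 and 2.57e-09). In C57 its vehicle arrays were 11.43, 11.57 and 11.37, its E2 2 h arrays 12.10, 12.34 and 12.26, and its IGF1 2 h arrays 10.75 and 10.79, so the 3 groups stood apart. Foxo3 and Foxo4, by contrast, fell with both: Foxo3 by 0.36 ± 0.08 with E2 and 0.94 ± 0.09 with IGF1 (adjusted p = 0.000577 and 3.21e-11), and Foxo4 by 0.59 ± 0.07 and 0.83 ± 0.07 (adjusted p = 3.07e-09 and 5e-12). The Foxo4 probe set lay between 5.88 and 7.52 in wild types.

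Of the 10 members 8 fell and 2 rose 2 h after E2, when 22.8% of all genes were called lower and 17.2% higher, and 9 of 10 fell 2 h after IGF1, when 19.0% of all genes were called lower. The median member changed by -1.57 with E2 and -1.61 with IGF1, and the median gene by -0.05 and -0.04. Leaving out any 1 of the 42 wild-type arrays kept these counts at 8 and 9. The marker lists of other cell types also moved at 2 h. Of 6 stromal markers 5 were lower and 1 higher with E2, of 6 smooth muscle markers 3 were higher and 1 lower, and all 3 liver markers (Alb, Apoa1 and Ttr, serum protein genes) were lower with E2 and with IGF1. The mean level of the liver list was 11.19 in C57 vehicle and 7.25 to 9.13 in the C57 hormone groups. In the ERaUtcKO experiment it went from 9.01 with vehicle to 7.29 2 h after E2 in the littermates and from 10.35 to 8.53 in the knockouts. It was 5.31 to 5.61 in all 10 groups of the Ex3aERKO experiment. In the Ex3aERKO littermates 8 members fell and 2 rose with E2 at 2 h (10.3% of all genes lower, 10.3% higher). The part of these markers in the members' change was not tested.

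At 24 h some members lay nearer to vehicle than at 2 h and others did not; the difference between the times was not itself tested. Sesn1 was lower by 0.93 ± 0.13 with E2 and 0.52 ± 0.13 with IGF1 (adjusted p = 6.78e-08 and 0.00119), and its arrays ran from 10.84 to 11.36 and from 11.06 to 12.20. Without C57 its IGF1 value was -0.33 and not called (limma adjusted p = 0.141). In the Ex3aERKO littermates alone it was -0.15 (adjusted p = 0.788), with arrays that overlapped vehicle. Sesn3 was not called with either hormone: it stood at -0.32 ± 0.18 with E2 (95% interval -0.68 to 0.04, adjusted p = 0.122) and at 0.07 ± 0.18 with IGF1 (interval -0.29 to 0.43, adjusted p = 0.79). Its IGF1 arrays overlapped the vehicle arrays in all 3 sets, whereas its E2 arrays lay below them in C57 (-0.55) and the ERaUtcKO littermates (-0.26) and overlapped them in the Ex3aERKO littermates (-0.13). The E2 value of Sesn3 was called lower without the Ex3aERKO littermates (-0.41, adjusted p = 0.0381) and with quantile normalization (-0.71, adjusted p = 0.000653). Fbxo32 stood at -2.09 ± 0.23 (4.26-fold lower) with E2 and -1.71 ± 0.23 (3.26-fold lower) with IGF1, adjusted p = 2.66e-10 and 8.59e-08, and Klhl24 at -1.37 ± 0.16 and -1.25 ± 0.16. Txnip stood at -2.28 ± 0.25 (4.86-fold lower, arrays 13.65 to 15.19) with E2 and at -1.35 ± 0.25 (2.54-fold lower, arrays 14.42 to 16.67) with IGF1, adjusted p = 3.85e-10 and 3.42e-05. The pooled IGF1 values of Txnip covered unequal values by set, although no difference between 1 set and the others was called (at 24 h adjusted p = 0.105 to 0.339). In C57 the difference from vehicle was -1.01 at 2 h and -1.92 at 24 h, in the ERaUtcKO littermates -1.76 and -1.73, and in the Ex3aERKO littermates -1.46 and -0.37, where the 24 h arrays overlapped the vehicle arrays (adjusted p = 0.721 in that set alone). Pik3ip1 was lower by 1.32 ± 0.10 and 1.01 ± 0.10. Foxo1, which had risen at 2 h with E2, was lower by 0.35 ± 0.06 at 24 h, and by 0.62 ± 0.06 with IGF1. Foxo3 and Foxo4 were lower by 0.47 to 0.59 in both groups.

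At 24 h 9 of 10 members were called lower with E2 (31.7% of all genes) and with IGF1 (21.6% of all genes), Sesn3 being the exception in both. The IGF1 count came mainly from the C57 and ERaUtcKO littermate sets. In the Ex3aERKO littermates alone it was 1 (Foxo1, -0.61 ± 0.15; 1.85% of all genes were lower), with Fbxo32 at 13.56, 14.26 and 13.71 against vehicle arrays of 14.84 and 15.31. For Bcl6 the 24 h falls were 0.53 ± 0.20 with E2 and 0.73 ± 0.20 with IGF1 (limma adjusted p = 0.0256 and 0.00398). The E2 fall rested on the C57 set. Without that set Bcl6 was at 0.02 with E2 (adjusted p = 0.933) and -0.43 with IGF1 (adjusted p = 0.0984). Leaving out any of 5 C57 arrays (vehicle replicates 1, 2 and 3 and E2 24 h replicates 1 and 3) ended the E2 call, with adjusted p up to 0.0746. The IGF1 call was also lost without the ERaUtcKO littermates (-0.68, adjusted p = 0.0849). In those littermates the difference was -0.88, and every IGF1 24 h array lay below the vehicle arrays. At 24 h, 7 of 8 epithelial markers and 6 of 6 smooth muscle markers were higher with E2, and 4 of 8 and 6 of 6 with IGF1. Of all 30142 genes 7396 were higher with E2 and 5819 with IGF1. The epithelial list's mean went from 9.62 to 10.38 in the vehicle groups to 12.10 to 12.24 with E2. The stromal list's mean was also higher at 24 h, going from 13.10 with vehicle to 13.87 with each hormone in C57, from 12.14 to 13.07 with E2 and 12.80 with IGF1 in the Ex3aERKO littermates, and from 12.08 to 13.11 and 12.98 in the ERaUtcKO littermates. Of its 6 genes 3 were higher and 2 lower with E2, and 4 higher and 1 lower with IGF1. The part of these markers in the members' 24 h values was not tested.

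**Figure D2:**
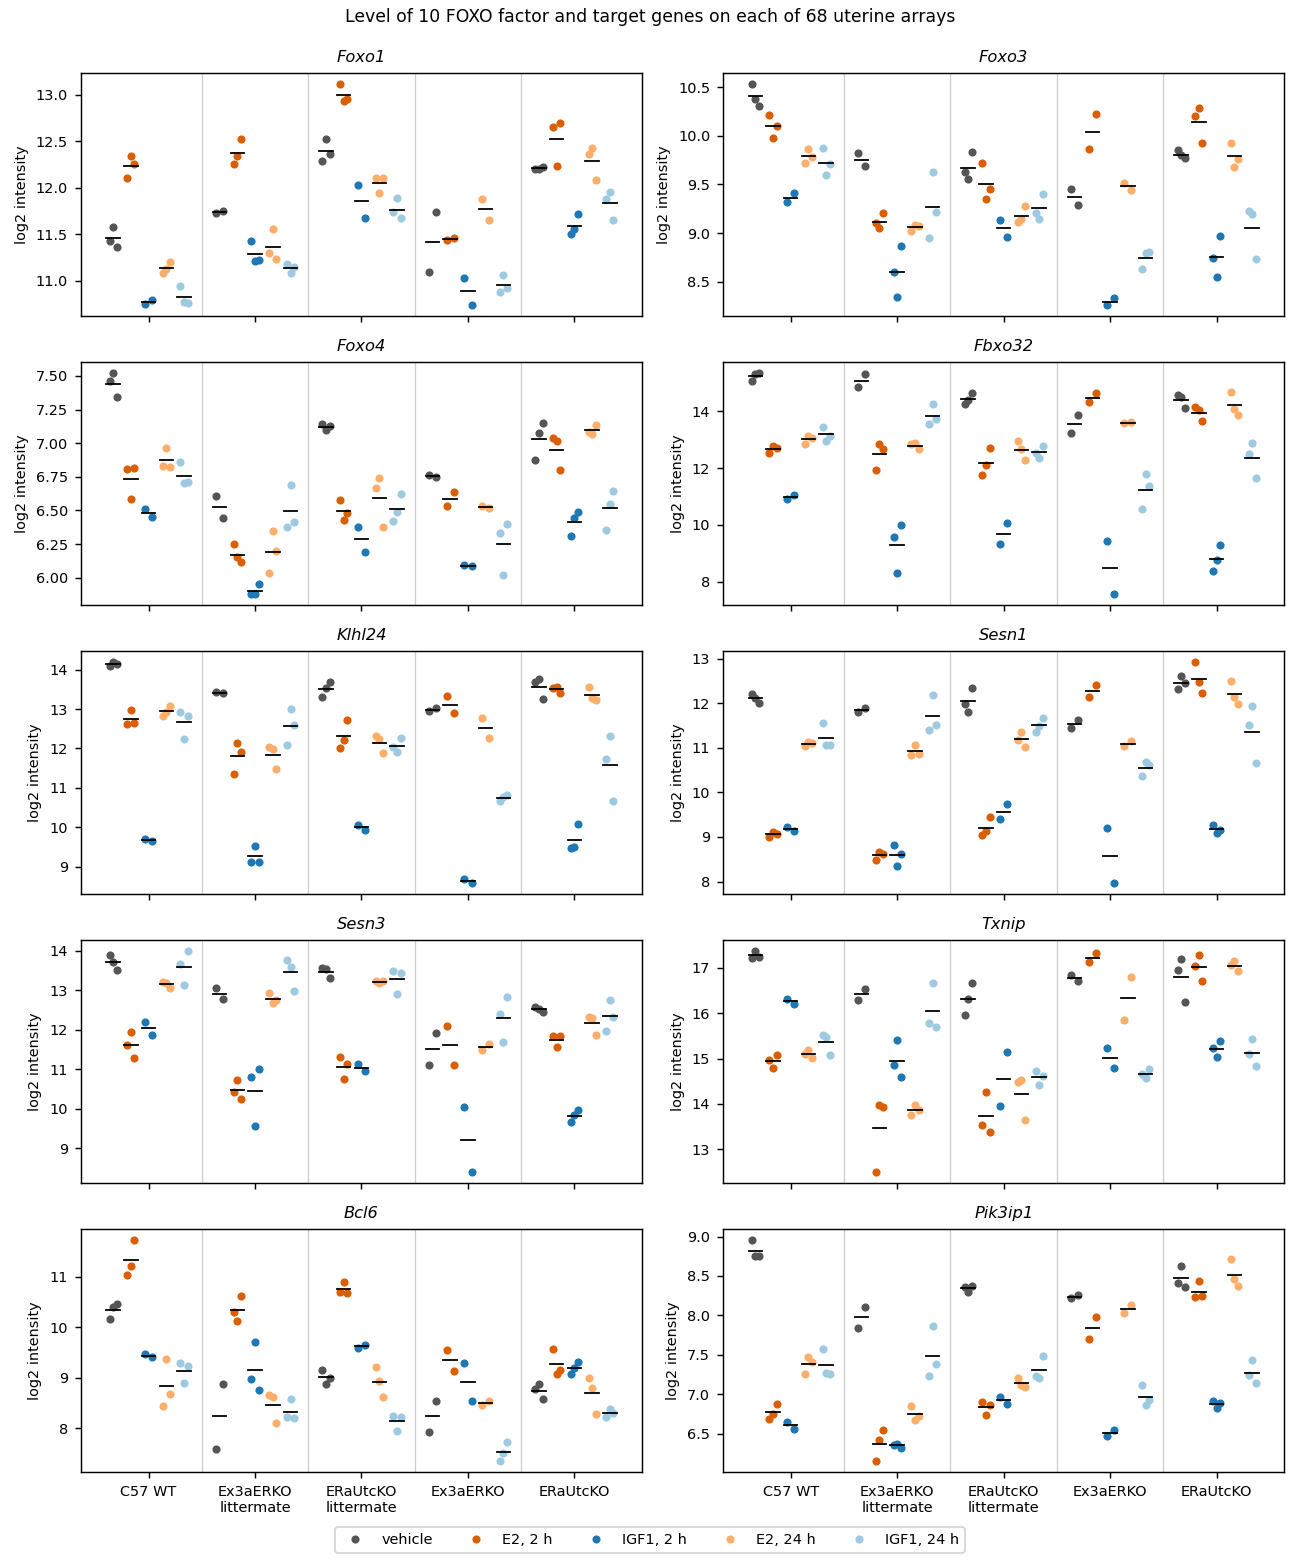
Deposited log2 intensity of each gene on each of the 68 arrays, one panel a gene, by treatment group and line; points are arrays and bars are group means. In the Fbxo32 panel the knockout E2 points at 2 h (13.64 to 14.63) lie above the vehicle points in Ex3aERKO and overlap them in ERaUtcKO, with the IGF1 2 h points of all 5 lines at 11.05 or below.

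Put directly against each other rather than against vehicle, E2 and IGF1 differed for 7 of 10 members at 2 h (22.0% of all genes). Vehicle arrays entered this comparison only through the set terms and the variance of the fit. Fbxo32 was 2.57 ± 0.24 (5.95-fold) and Klhl24 2.65 ± 0.16 (6.29-fold) higher with E2 than with IGF1, adjusted p = 1.2e-11 and 1.42e-16. Foxo1 was higher by 1.22 ± 0.06, Bcl6 by 1.39 ± 0.21, Foxo3 by 0.58 ± 0.09 and Foxo4 by 0.25 ± 0.07. Txnip was lower with E2, by 1.19 ± 0.26 (2.28-fold, adjusted p = 0.000462). The test found no difference for Sesn1 (-0.12, 95% interval -0.39 to 0.15), Sesn3 (-0.09, interval -0.46 to 0.29) and Pik3ip1 (0.04, interval -0.18 to 0.26). At 24 h 4 of 10 differed (28.1% of all genes): Foxo1 was 0.27 higher with E2, and Sesn1, Txnip and Pik3ip1 were lower by 0.41, 0.93 and 0.30 (adjusted p = 0.000222, 0.0106, 0.00277 and 0.021). That count was 1 in C57 alone, 1 in the ERaUtcKO littermates alone and 1 without the Ex3aERKO littermates, and without IGF1 24 h replicate 2 of the Ex3aERKO littermates Pik3ip1 lost its call (highest adjusted p = 0.0734).

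The 3 wild-type sets were compared for each response. In C57 the IGF1 2 h difference of Bcl6 was 1.67 ± 0.35 below that of the other wild types (adjusted p = 0.00954; 1.07% of all genes differed), with the C57 arrays falling from 10.15, 10.41 and 10.45 to 9.46 and 9.40 and the ERaUtcKO littermates going from 9.16, 8.88 and 8.9999 to 9.59 and 9.64. Bcl6 fell with IGF1 at 2 h in C57 alone (-0.91, adjusted p = 0.0208) and rose in the ERaUtcKO littermates alone (0.60, adjusted p = 0.0156). Its E2 24 h difference was likewise 1.58 ± 0.32 lower in C57 (adjusted p = 0.00177; 11.3% of all genes differed). Pik3ip1 fell by 0.69 more in C57 than elsewhere, both 2 h and 24 h after IGF1 (adjusted p = 0.0248 and 0.00955; 1.82% of all genes differed at 24 h). The IGF1 24 h differences of Foxo4 and Pik3ip1 were 0.62 and 0.76 higher in the Ex3aERKO littermates than in the other wild types (adjusted p = 0.026 and 0.0282; 0.219% of all genes differed).

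Without ERα in any cell, E2 did not lower these genes at a level the test could call. In Ex3aERKO Fbxo32 was 13.22 and 13.88 with vehicle and 14.33 and 14.63 2 h after E2, while in the littermates it was 14.84 and 15.31 with vehicle and 11.93, 12.84 and 12.68 after E2. The knockout E2 arrays lay above their vehicle arrays and the littermate E2 arrays below theirs. Sesn1 was 11.43 and 11.62 with vehicle and 12.15 and 12.41 after E2 in Ex3aERKO, against 11.80 and 11.90 with vehicle and 8.48, 8.67 and 8.62 after E2 in the littermates. For Txnip the knockout arrays were 16.85 and 16.70 with vehicle and 17.12 and 17.32 with E2, against 16.29 and 16.54 and then 12.49, 13.99 and 13.93 in the littermates. In both genes no littermate E2 array came within the range of any other group named here. The response to E2 therefore differed between the genotypes: by 4.02 ± 0.39 for Sesn1 (limma interaction, adjusted p = 2.05e-06), by 3.52 ± 0.74 for Fbxo32 (adjusted p = 0.00396) and by 3.39 ± 0.56 for Txnip (adjusted p = 0.00055).

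Of the 10 members 0 were called lower in Ex3aERKO 2 h after E2 and 0 higher by limma (0.0332% of all genes were called lower and 0.116% higher). By arrays, 5 members lay above their vehicle arrays and 3 overlapped them. The other 2, Foxo4 (-0.17) and Pik3ip1 (-0.40), lay below. Of all genes 15.1% lay above and 19.5% below. At an unadjusted p under 0.05 there were 2067 of all 30142 genes and 4 members. Those 4 were Foxo3 at 0.67 ± 0.18, Sesn1 at 0.76 ± 0.29, Bcl6 at 1.10 ± 0.37 and Pik3ip1 at -0.40 ± 0.17, with adjusted p = 0.204, 0.541, 0.419 and 0.645. Foxo3 passed, at adjusted p = 0.0197, when all 68 arrays shared 1 fit. The interaction was called for 7 of 10 members (9.43% of all genes): besides the 3 above, Foxo3, Klhl24, Sesn3 and Pik3ip1 by 1.21 to 2.54. Sesn3 rested on few arrays: leaving out littermate vehicle replicate 2 or 3, Ex3aERKO vehicle replicate 2 or Ex3aERKO E2 2 h replicate 1 ended its call (adjusted p up to 0.119). The rise of Bcl6 was not shown to differ between the genotypes: its littermate vehicle arrays were 7.58 and 8.88 and its E2 arrays 10.31, 10.11 and 10.61, its knockout arrays 7.93 and 8.54 and then 9.54 and 9.14, and the difference of the responses was -1.01 (95% interval -2.05 to 0.03, adjusted p = 0.267). Without littermate vehicle replicate 3 that difference was called (adjusted p = 0.043). The rise of Foxo1 likewise had a difference of -0.60 ± 0.23 (adjusted p = 0.122), called without Ex3aERKO vehicle replicate 2 (adjusted p = 0.0104) and with all 68 arrays in 1 fit (adjusted p = 0.0324).

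In ERaUtcKO, where Esr1 is lost from cells with progesterone receptor promoter activity, 6 of 10 members overlapped their vehicle arrays 2 h after E2. Foxo1, Foxo3 and Bcl6 lay above theirs (0.32, 0.33 and 0.52) and Sesn3 below (-0.77). Of all genes 6.83% lay above and 8.29% below. By limma 4 members had an unadjusted p under 0.05, as did 2576 of all 30142 genes. Fbxo32 was 14.56, 14.51 and 14.12 with vehicle and 14.14, 14.04 and 13.64 with E2, against 14.26, 14.41 and 14.65 and then 11.75, 12.12 and 12.72 in the littermates. Sesn1 stayed at 12.92, 12.49 and 12.22 with E2 beside vehicle arrays of 12.31, 12.61 and 12.45, and Txnip at 17.04, 17.29 and 16.70 beside 16.94, 17.20 and 16.26. Both knockout groups overlapped their vehicle arrays, and both littermate groups lay below theirs. The interaction was called for 8 of 10 members (13.8% of all genes), with Sesn1 at 2.93 ± 0.32, Txnip at 2.79 ± 0.42, Fbxo32 at 1.79 ± 0.43, Sesn3 at 1.65 ± 0.25 and Bcl6 at -1.22 ± 0.23 (adjusted p = 8.89e-07, 4.58e-05, 0.00512, 5.63e-05 and 0.000609). For Klhl24 the difference of 1.12 ± 0.38 had an adjusted p of 0.0499 and lost its call without any of 25 of the 29 arrays, and with centring on the array median (adjusted p = 0.0871). Bcl6 was 10.70, 10.89 and 10.67 after E2 in the littermates and 9.57, 9.08 and 9.15 in ERaUtcKO, where its difference from vehicle was 0.52 ± 0.16 (adjusted p = 0.215).

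Sesn3 was the 1 member called lower in ERaUtcKO 2 h after E2 (0.0929% of all genes), with vehicle arrays of 12.58, 12.52 and 12.45 and E2 arrays of 11.85, 11.56 and 11.84, which did not overlap. The fall of 0.77 ± 0.18 (1.7-fold) had an adjusted p of 0.0499. It was lost without any of 22 of the 29 arrays (adjusted p up to 0.22) and with all 68 arrays in 1 fit (adjusted p = 0.438). In the littermates Sesn3 went from 13.58, 13.55 and 13.31 to 11.31, 10.75 and 11.12.

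**Figure D3:**
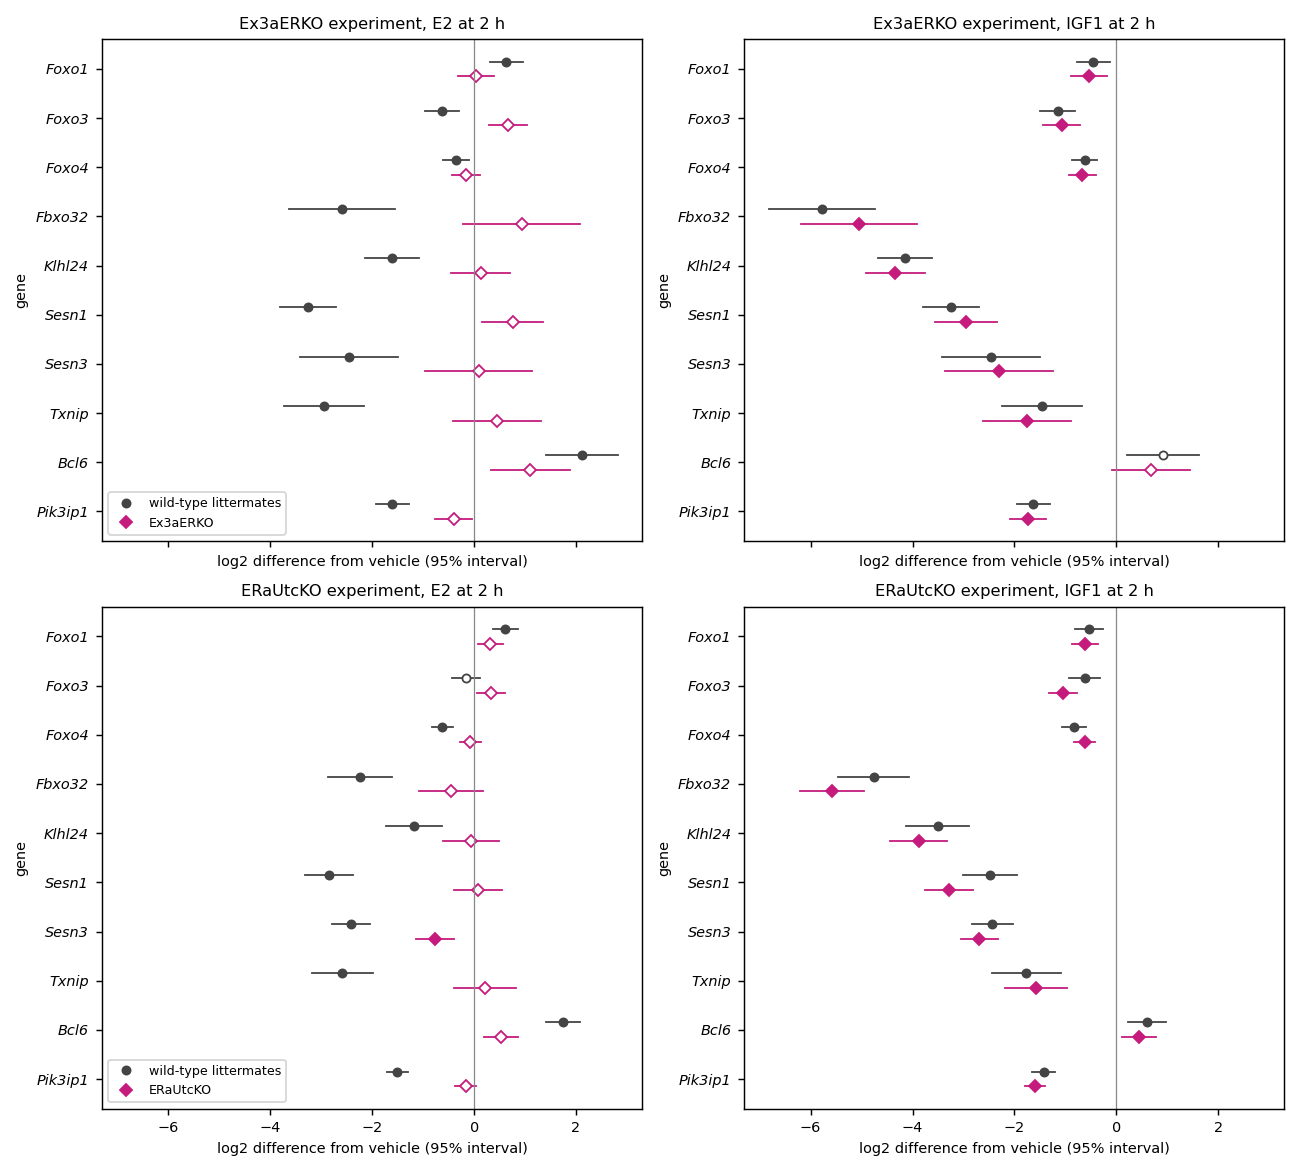
Log2 differences from the vehicle arrays of the same line, 2 h after E2 and 2 h after IGF1, with 95% intervals of the limma fits; circles are littermates, diamonds knockouts, and filled symbols passed an adjusted p of 0.05. After E2 the Sesn1 symbols of the littermates lie at -3.26 and -2.84 and those of Ex3aERKO and ERaUtcKO at 0.76 and 0.08, while after IGF1 the Fbxo32 symbols of all 4 lines lie between -5.79 and -4.76.

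At 24 h after E2, 0 of 10 members were called in either knockout by limma, and 0.0% of all genes were called. Of the members 0 had an unadjusted p under 0.05 in either, beside 4166 of all 30142 genes in Ex3aERKO and 1151 in ERaUtcKO. By arrays, 4 members lay below their vehicle arrays in Ex3aERKO and 6 overlapped them (14.8% of all genes lay below). The 4 were Klhl24 (-0.47), Sesn1 (-0.43), Foxo4 (-0.23) and Pik3ip1 (-0.16). The interaction was called for 6 of 10 in Ex3aERKO (16.8% of all genes): Fbxo32 at 2.32 ± 0.74, Txnip at 2.10 ± 0.56, Klhl24, Pik3ip1, Foxo3 and Foxo1. That count depended on single arrays. It was 1 without littermate vehicle replicate 3, 2 without littermate vehicle replicate 2 or Ex3aERKO E2 24 h replicate 1, and 3 without littermate E2 24 h replicate 3, Ex3aERKO vehicle replicate 2 or 3, or Ex3aERKO E2 24 h replicate 3. Pik3ip1, at 8.03 and 8.13 in Ex3aERKO and 6.85, 6.67 and 6.72 in the littermates 24 h after E2, differed by 1.07 ± 0.23. In ERaUtcKO 5 of 10 were called (32.9% of all genes): Txnip at 2.34 ± 0.42, Fbxo32 at 1.63 ± 0.43, Pik3ip1 at 1.25 ± 0.14, Klhl24 and Foxo4. Txnip was 17.07, 17.15 and 16.92 in ERaUtcKO and 14.48, 14.54 and 13.65 in the littermates at that time.

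IGF1 lowered 9 of the 10 members in both knockouts, Fbxo32 and Klhl24 furthest. In Ex3aERKO Fbxo32 went from 13.22 and 13.88 with vehicle to 9.44 and 7.55 after 2 h of IGF1, and in ERaUtcKO from 14.56, 14.51 and 14.12 to 8.38, 8.76 and 9.30. The differences were -5.06 ± 0.54 (33.3-fold) and -5.58 ± 0.30 (47.9-fold), adjusted p = 4.3e-06 and 2.88e-12. Klhl24 went from 12.95 and 13.02 to 8.70 and 8.58 in Ex3aERKO and from 13.69, 13.76 and 13.26 to 9.47, 9.51 and 10.08 in ERaUtcKO, differences of -4.34 ± 0.28 and -3.88 ± 0.27. No IGF1 array overlapped a vehicle array for these genes in either line. Sesn1 was 9.19 and 7.96 in Ex3aERKO and 9.27, 9.08 and 9.16 in ERaUtcKO, differing from vehicle by -2.95 ± 0.29 and -3.29 ± 0.23, and Sesn3, Txnip, Pik3ip1, Foxo3, Foxo4 and Foxo1 were lower in both as well. Marker lists moved at the same time, when 2594 of all 30142 genes were called higher in Ex3aERKO and 3936 in ERaUtcKO. The smooth muscle mean went from 13.84 with vehicle to 14.75 in Ex3aERKO (1 of 6 genes higher) and from 14.33 to 15.30 in ERaUtcKO (3 of 6 higher). The skeletal muscle mean went from 5.97 to 6.73 and from 6.31 to 6.72 (2 of 5 higher in each), and the adipocyte mean in Ex3aERKO from 7.84 to 9.73 (1 of 4 higher). Their part in the members' fall was not tested.

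Thus 9 of 10 members were lower 2 h after IGF1 in Ex3aERKO (7.09% of all genes) and 9 of 10 in ERaUtcKO (16.2% of all genes). In Ex3aERKO the count was 6 without IGF1 2 h replicate 2, when Foxo1, Sesn3 and Txnip lost their calls. Bcl6, the other member, was at 0.68 ± 0.37 in Ex3aERKO (adjusted p = 0.264) and higher by 0.44 ± 0.16 in ERaUtcKO (adjusted p = 0.0407; 13.1% of all genes were higher), a call that ended without ERaUtcKO vehicle replicate 1 or 3 or IGF1 2 h replicate 2 or 3 (adjusted p up to 0.168). At 24 h 8 members in Ex3aERKO (6.86% of all genes) and 9 in ERaUtcKO (15.5% of all genes) were lower. Fbxo32 was at 10.55, 11.81 and 11.36 in Ex3aERKO and at 12.48, 12.89 and 11.64 in ERaUtcKO. The first count was 5 without Ex3aERKO vehicle replicate 2, and in the second Foxo1 and Bcl6 lost their calls without ERaUtcKO IGF1 24 h replicate 3. Bcl6 also lost its call without ERaUtcKO vehicle replicate 1 or 2 or IGF1 24 h replicate 1. With centring, Foxo1 and Bcl6 were not called (limma adjusted p = 0.0612 and 0.105). Nor was Bcl6 with all 68 arrays in 1 fit (limma adjusted p = 0.167). Smooth muscle markers were also called higher 24 h after IGF1, 1 of 6 in Ex3aERKO and 6 of 6 in ERaUtcKO. Of all 30142 genes 3530 and 5080 were higher there. The part of the markers was not tested.

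The difference between the genotypes in the IGF1 response was called for 0 of 10 members in each of the 4 comparisons by limma. At 2 h, 0 members had an unadjusted p under 0.05 in Ex3aERKO and 2 in ERaUtcKO (Foxo3 and Sesn1). Of all 30142 genes 2247 and 3105 had such a p, and 0.0% and 0.511% were called. The intervals show what these arrays could miss. For Fbxo32 the difference was 0.73 in Ex3aERKO (95% interval -0.82 to 2.27) and -0.82 in ERaUtcKO (interval -1.76 to 0.11), and for Klhl24 -0.20 (interval -0.98 to 0.59) and -0.38 (interval -1.21 to 0.45). These do not show that the responses were equal. At 24 h in Ex3aERKO 2390 of all 30142 genes had an unadjusted p under 0.05 in either direction, and 0.0133% were called. Of the members 5 had such a p, each lower in the knockout. Among them Klhl24 was at -1.38 (interval -2.13 to -0.64, adjusted p = 0.247), Txnip at -1.74 (interval -2.86 to -0.62, adjusted p = 0.35) and Pik3ip1 at -0.78 (interval -1.24 to -0.32, adjusted p = 0.293), and with all 68 arrays in 1 fit Pik3ip1 was called (adjusted p = 0.0228). Txnip was 14.67, 14.56 and 14.78 in those knockouts and 15.78, 16.67 and 15.70 in the littermates. Its difference from vehicle was -2.11 in Ex3aERKO and -0.37 in the littermates, against -1.92 in C57 and -1.73 in the ERaUtcKO littermates. For Pik3ip1 these were -1.27 and -0.49, against -1.45 and -1.03. The Pik3ip1 response of the Ex3aERKO littermates was called different from that of the other wild types (limma adjusted p = 0.0282). For Klhl24 they were -2.23 and -0.85, against -1.48 and -1.43. At 24 h in ERaUtcKO 0 members had an unadjusted p under 0.05, beside 3457 of all 30142 genes (0.0498% of all genes were called).

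Within the knockouts E2 and IGF1 were also set against each other. The differences use no vehicle array, though vehicle arrays share in the variance of the fit. In both lines 9 of 10 members were higher 2 h after E2 than 2 h after IGF1 (5.71% of all genes in Ex3aERKO, 13.4% in ERaUtcKO), with Fbxo32 at 5.99 ± 0.54 (63.4-fold) and 5.13 ± 0.30 (35.0-fold), Sesn1 at 3.71 ± 0.29 and 3.37 ± 0.23, and Txnip at 2.21 ± 0.41 and 1.80 ± 0.29. In wild types the same contrast was -0.12 for Sesn1 and -1.19 for Txnip. Bcl6 was not called in either (0.43, 95% interval -0.34 to 1.20, and 0.08, interval -0.25 to 0.41).

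Vehicle levels of most members were not shown to differ by genotype. In ERaUtcKO Sesn3 was lower than in the littermates by 0.96 ± 0.18 (1.94-fold, adjusted p = 0.00204), the 1 member of 10 called (4.17% of all genes), and with all 68 arrays in 1 fit its adjusted p was 0.0607. In Ex3aERKO limma called 0 members (2.96% of all genes). At an unadjusted p under 0.05 there were 3 members and 4046 of all 30142 genes. Sesn3 was at 11.12 and 11.91 against 13.05 and 12.78, a difference of -1.40 ± 0.50 (adjusted p = 0.177), and Fbxo32 at -1.52 ± 0.54 (adjusted p = 0.174). With all 68 arrays in 1 fit both were called (adjusted p = 0.0113 and 0.0206). Without Ex3aERKO vehicle replicate 3, Foxo1 was called instead (adjusted p = 0.045).

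**Figure D4:**
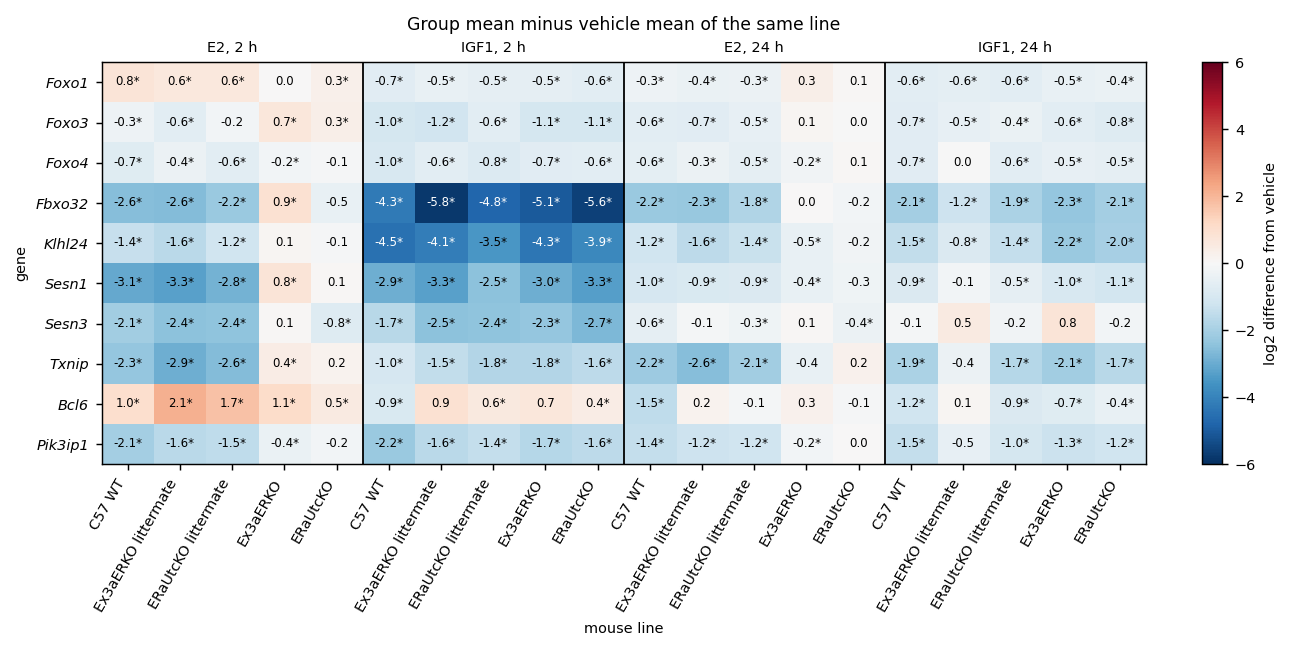
Group mean minus the vehicle mean of the same line, in log2 units, for the 10 genes (rows) in the 20 treated groups (columns); an asterisk marks a group in which every treated array lay outside the range of that line's vehicle arrays. Fbxo32 lies between -5.79 and -4.26 in the IGF1 2 h columns of all 5 lines, and the E2 24 h column of ERaUtcKO has an asterisk in 1 of 10 genes (9.75% of all genes were separate there).

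Taking the 20 treated groups one by one against the vehicle arrays of their own line, every treated array lay below the vehicle range in 17 groups for Klhl24, Pik3ip1 and Foxo4, in 16 for Fbxo32 and Sesn1, in 15 for Txnip and Foxo3, in 13 for Foxo1, in 12 for Sesn3 and in 6 for Bcl6. Bcl6 lay above it in 7 groups and Foxo1 in 4. Over the same 20 groups, 5.88% to 37.2% of all genes lay below the vehicle range and 3.87% to 30.4% above it. By group, the E2 24 h arrays of ERaUtcKO lay below for 1 member and overlapped for 9 (5.88% of all genes lay below), while the IGF1 2 h arrays of C57 lay below for all 10 (23.0% of all genes lay below). With 2 or 3 arrays a group such separation is a description only. Across the 20 groups the differences of Fbxo32 and Klhl24 were most alike (Pearson r = 0.949 over 20 groups that share vehicle arrays within lines), and those of Sesn3 and Bcl6 least (r = -0.570).

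The wider pathway was described with 4 lists, which held changes in both directions. In wild types at 2 h, 22.8% of all genes were called lower and 17.2% higher with E2. With IGF1 19.0% were called lower and 5100 of 30142 genes higher. Of 14 measured genes of the PI3K-AKT axis upstream of FOXO, 8 were lower and 3 higher 2 h after E2 in wild types and 5 lower and 6 higher after IGF1 (median -0.16 and 0.04). Irs2, an insulin receptor substrate and itself a FOXO target, fell by 2.29 ± 0.19 with E2 and 2.62 ± 0.20 with IGF1, and Igf1r by 0.46 ± 0.10 and 0.93 ± 0.11. Pik3r1, a regulatory subunit of PI3-kinase, fell by 1.05 ± 0.07 with E2 and rose by 0.25 ± 0.08 with IGF1. Sgk1, an AKT-related kinase that also phosphorylates FOXO proteins, rose by 1.95 ± 0.11 and 1.67 ± 0.12, and Akt1 by 1.25 ± 0.11 and 0.77 ± 0.12. In ERaUtcKO Sgk1 was the 1 gene of this list called 2 h after E2 (0.98 ± 0.14, adjusted p = 0.000815), and in Ex3aERKO limma called 0 of 14. Of all 30142 genes 28 were called lower and 120 higher in ERaUtcKO, and 10 lower and 35 higher in Ex3aERKO.

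Among 24 other FOXO targets 11 were lower and 8 higher 2 h after E2, and 9 lower and 4 higher after IGF1 (median -0.11 and -0.15). Of all genes, 22.8% were lower and 17.2% higher with E2, and 19.0% lower and 5100 of 30142 higher with IGF1. Cdkn1b, which encodes the cell-cycle inhibitor p27, fell by 1.69 ± 0.12 with E2 and 1.61 ± 0.12 with IGF1, and Ccng2, an atypical cyclin gene, fell by 1.57 ± 0.12 with E2 and fell by 1.983 ± 0.13 with IGF1. Pdk4, which restrains pyruvate oxidation, moved in opposite directions: it rose by 3.05 ± 0.34 with E2 and fell by 2.42 ± 0.37 with IGF1, a difference of 5.47 ± 0.35 (adjusted p = 6.65e-16). Tob1, an antiproliferative gene, rose by 2.18 ± 0.20 with E2 and was at 0.15 ± 0.21 with IGF1 (adjusted p = 0.64). Cited2, a transcriptional coregulator, fell by 2.08 ± 0.17 with E2 and 0.79 ± 0.18 with IGF1. Trib1, a pseudokinase gene, rose by 1.30 ± 0.10 and 1.20 ± 0.10, and Eif4ebp1, a translation repressor, rose by 0.93 ± 0.20 with IGF1. In the knockouts 2 h after E2, limma called 0 of these 24. Of all 30142 genes it called 10 lower and 35 higher in Ex3aERKO, and 28 and 120 in ERaUtcKO. The interaction with E2 was called for 10 of these 24 in Ex3aERKO (6 higher, 4 lower) and 13 in ERaUtcKO (8 higher, 5 lower). It was called for 9.43% and 13.8% of all genes. Irs2 was at 2.10 ± 0.59 and 2.53 ± 0.33 and Cdkn1b at 2.02 ± 0.34 and 1.34 ± 0.27. In IGF1-treated knockouts Irs2 fell by 2.07 ± 0.44 and 2.41 ± 0.23 and Cdkn1b by 1.33 ± 0.25 and 2.00 ± 0.19.

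Of 16 autophagy and lysosome genes tied to FOXO, 6 were lower and 6 higher with E2 and 9 lower and 5 higher with IGF1 at 2 h (median -0.15 and -0.42). Of all genes, 22.8% were lower and 17.2% higher with E2, and 19.0% lower and 5100 of 30142 higher with IGF1. Gabarapl1, an ATG8-family gene of the autophagosome, fell by 0.88 ± 0.15 and 1.88 ± 0.16, and Ulk2, a kinase that starts autophagy, by 0.45 ± 0.06 and 0.86 ± 0.06. Becn1, another autophagy gene, rose by 0.61 ± 0.05 and 0.58 ± 0.06, Atg4b rose by 0.57 ± 0.08 with E2, and Atg5 rose by 0.68 ± 0.09 with IGF1. Of 10 relatives of the members, 3 were lower and 4 higher with E2, and 1 lower and 3 higher with IGF1. Arrdc3, an arrestin-domain relative of Txnip, fell by 2.32 ± 0.14 and 3.02 ± 0.15, and its E2 response differed in Ex3aERKO and ERaUtcKO by 1.71 ± 0.33 and 2.45 ± 0.23. Sesn2, the sestrin outside the members, rose by 0.39 ± 0.12 with E2 and 1.09 ± 0.13 with IGF1, opposite to Sesn1 and Sesn3. Bcl6b, a close homologue of Bcl6, rose by 1.36 ± 0.15 with E2 and 0.90 ± 0.16 with IGF1. With E2, Mlxipl, which encodes the glucose-responsive factor ChREBP, rose by 1.23 ± 0.17 and Klhl20 fell by 0.44 ± 0.06.

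The genes whose differences over the 20 treated groups were most like the mean of the members, among 14147 candidates, were Pcmtd2 (Pearson r = 0.979), Zfp182 (0.976), Nek7 (0.971), Zfp874b (0.970), Inpp5k (0.968) and Mxi1 (0.966). Most like Fbxo32 alone were Pcmtd2 (0.970), Inpp5k (0.965), Fbxl20 (0.962), Plscr4 (0.962) and Nek7 (0.959). Pcmtd2 differed from vehicle by -2.69 in C57 and -2.75 in Ex3aERKO 2 h after IGF1, and by -1.22 and 0.16 2 h after E2. Mxi1, which encodes a MYC antagonist, was at -2.22 and -1.81 with IGF1 and at -1.55 and 0.19 with E2. The groups share vehicle arrays within lines, and the correlations describe these groups only.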

How the data were processed

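RNA of whole uteri was hybridised to Affymetrix mouse arrays. The authors deposited 1 table of log2 intensities for 72688 probe sets on 68 arrays. The background correction, summarisation and normalization behind it are not given in the sources used here, so an uneven baseline between sets of mice cannot be traced. Of these probe sets 32750 are in the platform annotation, which can be old. Of those, 30604 name 1 gene, 2146 name several and were left out, and 355 genes have several probe sets, of which the one with the highest mean was kept, giving 30142 genes. No per-sample column was left unused.

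Differences were fitted in R 4.3.3 with limma 3.58.1 (lmFit, eBayes) on the deposited log2 values, with p-values adjusted by Benjamini-Hochberg over all 30142 genes and called at 0.05. The wild-type fit held 42 arrays (treatment and set, 35 residual degrees of freedom), the Ex3aERKO fit 25 arrays (15) and the ERaUtcKO fit 29 arrays (19). Differences between genotypes in a response are interaction terms. Errors after ± are standard errors, and intervals are those of the fit. The procedure was tested on simulated data. Replicate numbers did not pair samples: the median correlation of same-numbered deviations was -0.142, -0.003 and -0.004 in the 3 sets. Tables and figures were made in Python 3.11.15.

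The members and the gene lists were chosen with earlier results of these data known. Genes named beyond the 10 members are, by rule, the 2 largest called rises and falls of each list 2 h after E2 or IGF1 in wild types, a fixed set of pathway genes, and the genes whose pattern was most like the members' over the treated groups. Alternatives were quantile normalization, centring, a filter on dim genes, robust variances, the mean of a gene's probe sets, a replicate block, 1 fit of all arrays, single sets of wild types and leaving out each array. Leaving out a whole set, comparing 1 set with the others and E2 against IGF1 within a knockout line were chosen after seeing the data.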

Additional observations from a re-analysis of the deposited data

Results flagged for a closer look

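For 26 values the response to E2 differed between a knockout line and its littermates by the limma interaction test. In Ex3aERKO it was called for 7 of 10 members at 2 h (9.43% of all genes) and 6 of 10 at 24 h (16.8%). In ERaUtcKO it was called for 8 of 10 at 2 h (13.8%) and 5 of 10 at 24 h (32.9%). A positive value means that the log2 difference from vehicle was higher in the knockout. In Ex3aERKO at 2 h the called values were Sesn1 at 4.02, Fbxo32 at 3.52, Txnip at 3.39, Sesn3 at 2.54, Klhl24 at 1.74, Foxo3 at 1.31 and Pik3ip1 at 1.21. In Ex3aERKO at 24 h they were Fbxo32 at 2.32, Txnip at 2.10, Klhl24 at 1.11, Pik3ip1 at 1.07, Foxo3 at 0.81 and Foxo1 at 0.73. In ERaUtcKO at 2 h they were Sesn1 at 2.93, Txnip at 2.79, Fbxo32 at 1.79, Sesn3 at 1.65, Pik3ip1 at 1.34, Klhl24 at 1.12, Foxo4 at 0.54 and Bcl6 at -1.22. In ERaUtcKO at 24 h they were Txnip at 2.34, Fbxo32 at 1.63, Pik3ip1 at 1.25, Klhl24 at 1.15 and Foxo4 at 0.59. Bcl6 in ERaUtcKO was the 1 negative value of the 26. Klhl24 in ERaUtcKO at 2 h (interaction adjusted p = 0.0499) lost its call without any of 25 of the 29 arrays. Klhl24 in Ex3aERKO at 24 h had an interaction adjusted p of 0.0486, and the Ex3aERKO count at 24 h depended on single arrays. No group had the 4 or more arrays needed to test whether its highest or lowest array stands apart.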

How the results depend on the processing

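The counts of members called at 2 h in wild types kept within 1.5 times under every alternative run; the counts that moved further lay at 24 h or in the knockouts. Single values at 2 h in wild types moved too: with E2, Foxo3 was at -0.16 in the ERaUtcKO littermates alone (-0.36 over all sets) and Foxo4 at -0.35 in the Ex3aERKO littermates alone (-0.59 over all sets), and neither was called there. Members lower in wild types 24 h after IGF1 numbered 1 in the Ex3aERKO littermates alone (9 over all sets). Members differing between E2 and IGF1 at 24 h numbered 1 in C57 alone, 1 in the ERaUtcKO littermates alone and 1 without the Ex3aERKO littermates (4 over all sets). With centring, the E2 24 h response differed in Ex3aERKO for 2 members (6 in the fit of the Results). With robust variances, and with a replicate block, that count was 5. With all 68 arrays in 1 fit, 1 member differed in its IGF1 24 h response in Ex3aERKO (0 in the fit of the Results). With vehicle, 2 members differed in Ex3aERKO and 0 in ERaUtcKO when all 68 arrays shared 1 fit (0 and 1 in the fits of the Results). Members lower 2 h after E2 in ERaUtcKO numbered 0 with all 68 arrays in 1 fit, with robust variances and with a replicate block. In the fit of the Results the count was 1. With quantile normalization, 8 differed in their E2 24 h response in ERaUtcKO (5 in the fit of the Results). Foxo3 was also called for that difference with the filter on dim genes and with all 68 arrays in 1 fit (limma adjusted p = 0.0427 and 0.0433). Foxo1 was called with the filter (limma adjusted p = 0.0493). Among values called over all sets or under the alternative, those that turned sign were Bcl6 24 h after E2 (0.23 in the Ex3aERKO littermates alone, 0.022 without C57), 24 h after IGF1 (0.10 in the Ex3aERKO littermates alone) and 2 h after IGF1 (-0.91 in C57 alone), and Pik3ip1 between E2 and IGF1 at 24 h (0.0093 in C57 alone); the cause was not tested.

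With the replicate number as a block, 0 members were lower 2 h after E2 in ERaUtcKO (Sesn3, adjusted p = 0.0746). Of 280 member values 274 kept their call under the block and 6 lost it, among them Klhl24 in the ERaUtcKO E2 2 h interaction (adjusted p = 0.0634) and 4 values of Foxo1 in Ex3aERKO. Same-numbered samples did not deviate together.

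Leaving out 1 array at a time gave 8304 of 8460 member values on the same side of the threshold and 0 reversed. Counts ranged from 1 to 6 for the E2 24 h interaction in Ex3aERKO, from 5 to 8 for IGF1 24 h in Ex3aERKO, from 0 to 1 for vehicle in Ex3aERKO and from 0 to 1 for E2 2 h in ERaUtcKO. Centring on the array median moved the share of higher genes among all those called from 43.1% to 60.2% for E2 2 h, 43.7% to 56.5% for E2 24 h, 47.1% to 63.4% for IGF1 2 h and 47.2% to 60.9% for IGF1 24 h in wild types. For the interaction it moved from 48.6% to 31.9% and 52.7% to 34.3% in ERaUtcKO (E2 at 2 h and 24 h) and from 37.7% to 24.2% in Ex3aERKO (E2 24 h). Every member was above the median of the control probe sets on all arrays, and 2 or 3 arrays a group limit the precision.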
